A study of Homo sapiens with 30 samples.

Results

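The 10 inflammatory cytokine and chemokine genes described here are CXCL1, CXCL2, CXCL3, CXCL8, CCL2, CCL20, IL6, IL11, LIF and IL1B, taken as a fixed list from 20098 protein-coding genes on the autosomes and chromosome X. They were chosen by name, with earlier results of these data known. They were followed in chromatin immunoprecipitation sequencing (ChIP-seq) of MDA-MB-231 cells, an established human triple-negative breast cancer line. Antibodies against SAP30 and its partners SIN3A and SIN3B were used in parental cells only. RNA polymerase II (Pol II), trimethylated histone H3 lysine 4 (H3K4me3) and acetylated histone H3 lysine 9 (H3K9Ac) were profiled in parental cells and in SAP30-KO1, a line in which SAP30 was deleted with CRISPR/Cas9 and which, by the study's methods, pools more than 1 knockout clone. Each of these 9 groups had 2 libraries, and the labels do not say whether the 2 came from separate cultures, so any p-value measures only the spread between these libraries.

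Chemokines are small secreted proteins that attract leukocytes and also act on tumor and endothelial cells. CXCL1, CXCL2, CXCL3 and CXCL8 are neutrophil attractants that signal through CXCR2, CCL2 attracts monocytes through CCR2, and CCL20 is the ligand of CCR6. IL6, IL11 and LIF belong to the IL-6 family, which signals through gp130 and STAT3, and IL1B is a leukocyte cytokine that induces many of the others through NF-kB. SAP30 is a subunit of the SIN3 histone deacetylase complex, for which SIN3A and SIN3B are alternative scaffolds, and H3K4me3 and H3K9Ac mark active promoters.

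The measured values were summits, the single bases at which the peak caller placed the top of each peak, with its −log10 q-value. The 18 lists held 10861 to 54622 summits, and none was weaker than a q-value of 0.0499. Sequencing depth is unknown, so a missing summit means only that no peak passed that limit. A promoter peak was a summit within 1000 bp of a start site, and its rank was its place in its own list by q-value, from 0% (strongest) to 100% (weakest). SAP30 loss could not be checked from peak lists, because no SAP30 list of the knockout was analysed here. VIM, CD44 and EGFR, markers of mesenchymal triple-negative cells, had a promoter peak in both libraries of all 9 groups (3 of 3 genes). Of 4 leukocyte markers none had a Pol II peak and 1, CD14, had H3K4me3. CD14 also had SAP30, SIN3B and H3K9Ac in both libraries of each group. Of 6 luminal and epithelial markers, 1 had Pol II and 5 had H3K4me3 in parental cells.

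The promoters of the CXC genes and IL6 are printed first, so that the letters of the 3 GRO chemokine genes can be compared with those of CXCL8. These are RefSeq windows of build GRCh38.p14, from 250 bases before to 50 bases after the start site, read 5′ to 3′ along the gene. Capitals mark the kB consensus, the recognition motif of NF-kB, the AP-1 motif TGANTCA and the TATA box TATAAA, each searched on both strands. In CXCL1, CXCL2 and CXCL3 the capitals hold 2 overlapping kB matches, 1 on each strand. The CXCL8 window holds TGGAATTTCC, which differs from the GRO match GGGAATTTCC in its first base only and is therefore not marked. The windows lie at chr4:73869143-73869442 (CXCL1, plus strand), chr4:74099146-74099445 (CXCL2, minus), chr4:74038640-74038939 (CXCL3, minus), chr4:73740319-73740618 (CXCL8, plus) and chr7:22726950-22727249 (IL6, plus).
CXCL1: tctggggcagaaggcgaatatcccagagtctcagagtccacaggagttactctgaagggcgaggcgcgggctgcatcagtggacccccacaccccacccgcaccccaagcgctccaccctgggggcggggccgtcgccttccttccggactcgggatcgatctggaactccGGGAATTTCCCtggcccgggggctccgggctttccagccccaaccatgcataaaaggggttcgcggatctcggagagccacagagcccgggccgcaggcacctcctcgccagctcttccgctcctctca
CXCL2: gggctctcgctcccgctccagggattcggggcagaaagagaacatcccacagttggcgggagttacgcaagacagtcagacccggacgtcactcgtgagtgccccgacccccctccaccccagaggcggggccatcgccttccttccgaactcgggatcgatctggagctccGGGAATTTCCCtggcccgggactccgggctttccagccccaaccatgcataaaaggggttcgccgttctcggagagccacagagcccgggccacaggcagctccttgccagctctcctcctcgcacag
CXCL3: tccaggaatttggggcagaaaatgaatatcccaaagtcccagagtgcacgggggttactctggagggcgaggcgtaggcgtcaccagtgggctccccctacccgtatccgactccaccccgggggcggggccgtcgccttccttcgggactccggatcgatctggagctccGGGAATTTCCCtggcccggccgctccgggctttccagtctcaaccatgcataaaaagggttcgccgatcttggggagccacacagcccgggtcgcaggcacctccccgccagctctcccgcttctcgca
CXCL8: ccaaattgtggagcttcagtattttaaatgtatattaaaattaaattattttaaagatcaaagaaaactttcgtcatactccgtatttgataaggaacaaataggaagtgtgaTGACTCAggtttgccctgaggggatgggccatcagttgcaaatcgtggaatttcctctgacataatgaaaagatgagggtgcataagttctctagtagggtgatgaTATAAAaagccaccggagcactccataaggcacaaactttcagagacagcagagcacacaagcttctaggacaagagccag
IL6: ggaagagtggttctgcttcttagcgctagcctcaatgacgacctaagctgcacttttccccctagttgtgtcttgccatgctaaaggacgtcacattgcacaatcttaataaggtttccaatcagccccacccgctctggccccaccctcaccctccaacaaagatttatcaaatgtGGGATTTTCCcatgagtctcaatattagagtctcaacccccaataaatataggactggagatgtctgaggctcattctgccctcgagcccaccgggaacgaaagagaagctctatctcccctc

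RefSeq windows were found for 8 of the 10 genes. A kB match was present in 5 of the 8 windows, those of CXCL1, CXCL2, CXCL3, CCL20 and IL6, and in 972 of 15289 promoters of protein-coding genes (6.36%). The match began 79 bases upstream of the start site in CXCL1, CXCL3 and CCL20, 78 bases upstream in CXCL2 and 73 bases upstream in IL6. AP-1 matches lay 137 bases upstream in CXCL8 and 96 bases upstream in IL11, and 5.74% of all promoters held one. TATA boxes lay 31 bases upstream in CXCL8 and 29 bases upstream in CCL20, against 9.60% of all promoters. CXCL1 and CXCL3 were 82.5% identical over the window, CXCL1 and CXCL2 73.3%, and CXCL2 and CXCL3 72.2%. A match is a run of letters only, and no match in a window says nothing of the factor.

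**Figure D1:**
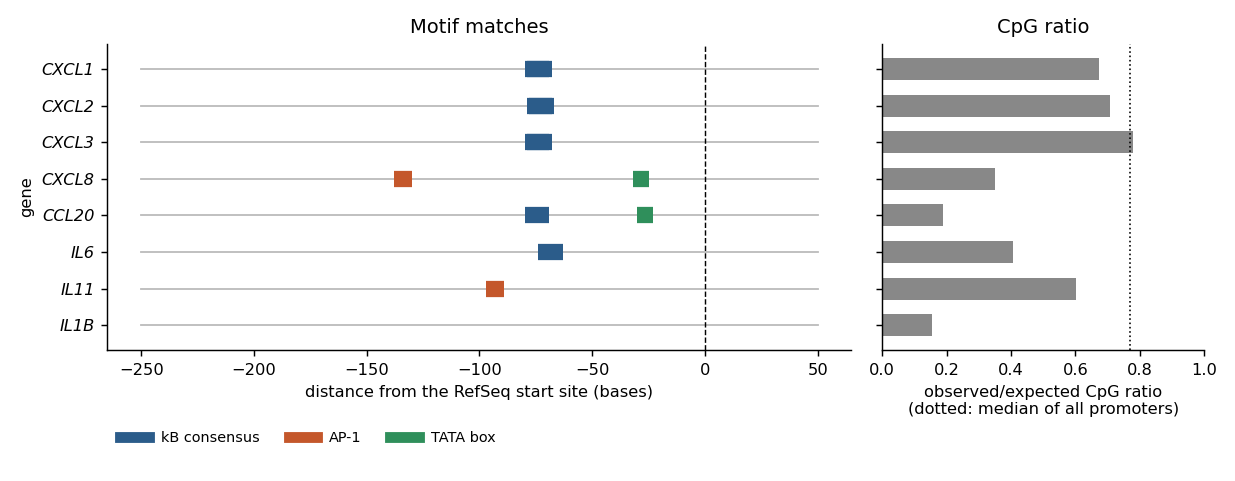
Motif matches (left, bases from the RefSeq start site) and the observed to expected CpG ratio (right) in the 300-base promoter windows of 8 of the genes. The kB matches of CXCL1, CXCL2, CXCL3, CCL20 and IL6 begin 73 to 79 bases upstream, and CCL20, CXCL8 and IL1B have the lowest CpG ratios.

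The windows also differed in CpG content, a feature of most broadly used promoters. The ratio of observed to expected CpG was 0.778 in CXCL3, 0.706 in CXCL2, 0.674 in CXCL1 and 0.603 in IL11, beside a median of 0.768 over all promoters. It was 0.405 in IL6, 0.351 in CXCL8, 0.190 in CCL20 and 0.155 in IL1B. Among all promoters with a ratio under 0.4, 691 of 3757 (18.4%) had a SAP30 peak in both libraries, and at 0.4 or more 9172 of 11532 (79.5%) did. The corresponding counts for the cytokine genes were 1 of 3 (CXCL8) and 5 of 5, with IL6 just above the limit, which was chosen for this description.

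SAP30 had a promoter peak in both parental libraries at 6 of the 10 genes, CXCL1, CXCL2, CXCL3, CXCL8, IL6 and IL11, and the share over all genes was 61.2%. The same 6 genes carried H3K4me3 in both parental libraries (all genes, 63.8%). SIN3B was found in both libraries at 4 of them, CXCL2, CXCL3, IL6 and IL11 (all genes, 51.7%), and SIN3A at IL11 only (all genes, 31.5%). Pol II was present in both parental libraries at 5 genes, CXCL1, CXCL2, CXCL3, CXCL8 and IL11 (all genes, 57.7%), and H3K9Ac at 5, with IL6 in place of IL11 (all genes, 61.4%). In SAP30-KO1, both libraries had Pol II at 4 genes (all genes, 53.9%), H3K4me3 at 5 (all genes, 62.8%) and H3K9Ac at 5 (all genes, 61.1%). CCL2, CCL20, LIF and IL1B had no promoter peak of any target in any of the 18 libraries. For SAP30 and parental H3K4me3, 6 of 10 genes is the count nearest to the share over all genes. The same 4 genes were empty in all 9 groups, so the 9 counts are not separate observations.

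**Figure D2:**
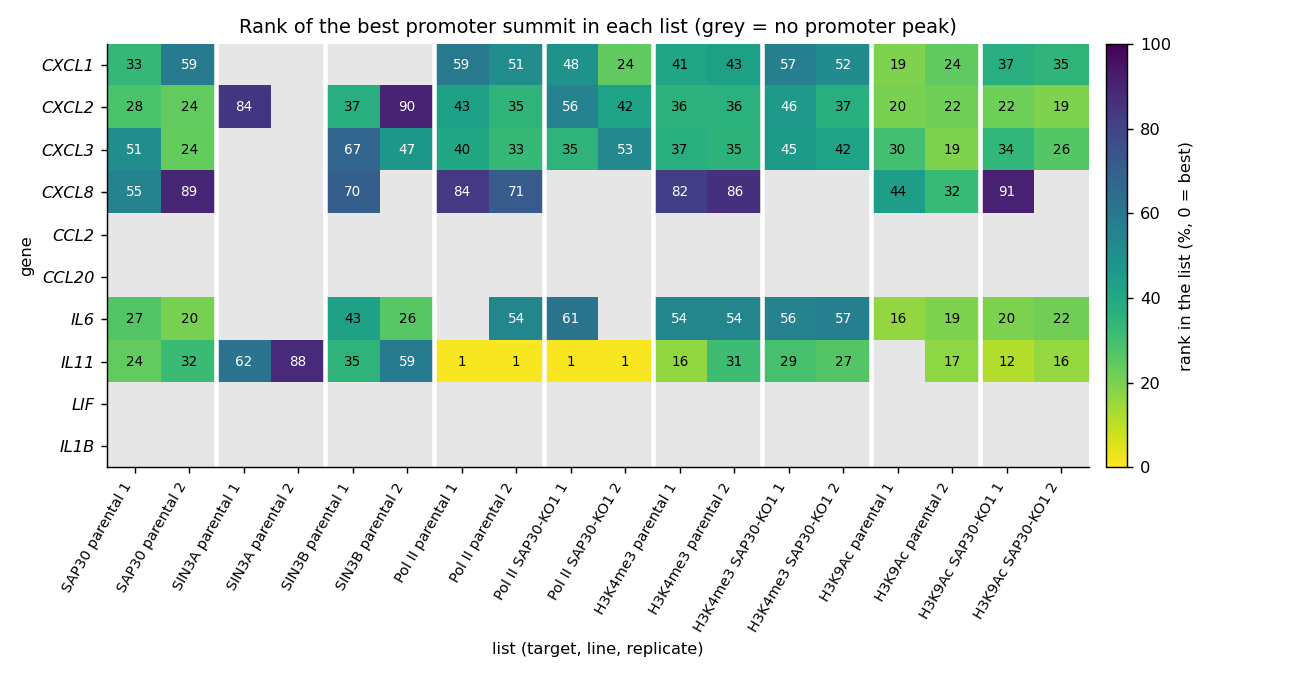
Rank of the best promoter summit of each gene (rows) in each of the 18 lists (columns), in percent of the list, where 0 is strongest and grey marks no promoter peak. IL11 is near 1 in all 4 Pol II lists, CXCL8 is empty in the Pol II and H3K4me3 lists of SAP30-KO1, and 4 genes are empty throughout.

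Where these promoters had peaks, the peaks were weak for a promoter. The median SAP30 rank over the 6 genes was 32.5%, beside 17.1% over all genes with SAP30 in both libraries. For H3K4me3 in parental cells it was 39.0% beside 23.7%, for parental H3K9Ac 21.8% beside 12.2%, and for parental Pol II 38.7% beside 25.5%. IL11 was the exception for Pol II. Its ranks were 1.01% and 1.17% in parental and 0.840% and 0.877% in SAP30-KO1 libraries, and only 1.83% of genes with parental Pol II ranked better.

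CXCL8 was the gene of this list whose promoter peaks were present in one line and missing in the other. The gene lies on chromosome 4 at 74606236-74609433 of GRCh37, the build of all coordinates that follow, on the plus strand. Pol II summits in parental libraries lay 105 bp downstream and 12 bp upstream of a start site, with ranks of 83.6% and 71.3% and −log10 q-values of 4.24 and 6.31. Neither SAP30-KO1 library had a Pol II summit within 128863 bp. H3K4me3 summits lay in the first intron, 590 and 592 bp downstream of the start site, in the parental libraries, with ranks of 81.6% and 86.2%. Neither SAP30-KO1 library had an H3K4me3 summit within 120084 bp. Parental and knockout libraries therefore did not overlap for either target, but 2 libraries against 2 cannot give a two-sided exact permutation p below 0.333.

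CXCL8 was the 1 member of the list that lost its Pol II promoter peak, which happened at 270 of all genes (1.34%), and the 1 member that lost H3K4me3, as did 184 of all genes (0.916%). Both were lost together at 7 genes (0.0348%), CXCL8 among them. These shares include genes that had no peak to lose, and joint loss was not counted among genes of like rank. No member gained a Pol II (all genes, 0.134%) or an H3K4me3 promoter peak (all genes, 0.104%). Because the CXCL8 peaks were near the weak end of their lists, genes of like rank give a closer comparison. Of 191 genes whose mean parental Pol II rank lay within 5 percentage points of that of CXCL8 (77.4%), 65 (34.0%) lost the peak, and of 130 genes within 5 points of its mean H3K4me3 rank (83.9%), 59 (45.4%) did. With a window of 500 bp the H3K4me3 summits at 590 and 592 bp fell outside, and no loss was counted.

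H3K9Ac at CXCL8 was stronger in parental cells and thinned in SAP30-KO1. The best promoter summit ranked 44.1% and 32.1% in the parental libraries, whereas SAP30-KO1 replicate 1 had a single summit 279 bp upstream at 91.0% and replicate 2 had none within 13408 bp. Among 506 genes within 5 points of the mean parental rank of CXCL8 (38.1%), 14 (2.77%) kept a peak in only 1 SAP30-KO1 library and 5 (0.988%) in neither. By the definition used, no member lost (all genes, 0.423%) or gained (all genes, 0.328%) an H3K9Ac promoter peak in both libraries. Without SAP30-KO1 replicate 1, CXCL8 counted as lost. It could not be fitted with all 4 libraries, and without SAP30-KO1 replicate 2 limma called its H3K9Ac difference (adjusted p = 0.0192), with 1 knockout library assumed to vary like the parental pair. Within 50 kb of CXCL8, H3K9Ac summits numbered 12 and 12 in parental and 8 and 7 in SAP30-KO1 libraries. They were fewer in both SAP30-KO1 than in both parental libraries at 13.3% of all genes. Within the CXCL8 gene body they numbered 2 and 1 against 0 and 0, and no share over all genes was computed for gene bodies.

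SAP30 at the CXCL8 promoter ranked 55.2% and 89.4%, the weakest of the 6 bound promoters, and 98.1% of SAP30-bound genes ranked better. Its strongest SAP30 region within 50 kb was instead intergenic, 35790 bp upstream, where the summits of the 2 libraries fell on adjacent bases (74570467 and 74570468) and ranked 23.0% and 6.66%. H3K9Ac was present there in both libraries of both lines, and Pol II, SIN3A, SIN3B and H3K4me3 in none. In the stretch from 37 to 31 kb upstream, H3K9Ac had 5 and 5 summits in parental and 4 and 6 in SAP30-KO1 libraries, with best ranks of 23.7%, 32.1%, 24.6% and 37.9%. An uncharacterized noncoding gene, ENSG00000289530, overlaps this stretch. From 15 to 11 kb upstream, the counts were 3 and 5 against 3 and 1. These stretches, like those of CCL20 and LIF described below, were delimited after their values were seen.

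The 300 bases around the best-ranked SAP30 summit of this region, chr4:74570318-74570617, and of the region beside CCL20, chr2:228683413-228683712, are shown from the GRCh37 plus strand, since these were the best-ranked SAP30 regions within 50 kb of each gene. The capitals mark the same motifs, of which the CCL20 window holds none.
CXCL8 upstream region: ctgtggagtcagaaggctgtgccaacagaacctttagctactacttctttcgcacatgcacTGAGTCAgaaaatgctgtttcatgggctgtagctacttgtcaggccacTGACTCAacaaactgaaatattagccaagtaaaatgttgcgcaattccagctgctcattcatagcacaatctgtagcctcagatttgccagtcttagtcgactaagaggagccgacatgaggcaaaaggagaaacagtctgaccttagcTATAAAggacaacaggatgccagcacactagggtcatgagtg
CCL20 downstream region: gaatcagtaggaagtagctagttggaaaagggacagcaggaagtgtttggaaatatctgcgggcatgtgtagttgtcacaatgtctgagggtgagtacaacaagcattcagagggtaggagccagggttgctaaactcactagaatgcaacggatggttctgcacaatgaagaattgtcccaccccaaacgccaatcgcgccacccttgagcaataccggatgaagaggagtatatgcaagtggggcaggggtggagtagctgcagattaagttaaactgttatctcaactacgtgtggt

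The CXCL8 window held 2 AP-1 matches and 1 TATA match, and neither window held a kB match. In windows placed in the same way, 42.8% of 11664 SAP30 regions away from promoters held an AP-1 match and 5.82% a kB match, and of the 20 such regions within 50 kb of the cytokine genes 9 held AP-1 and 4 held kB. At promoters, 6.59% of SAP30 regions held AP-1 and 7.70% held kB.

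**Figure D3:**
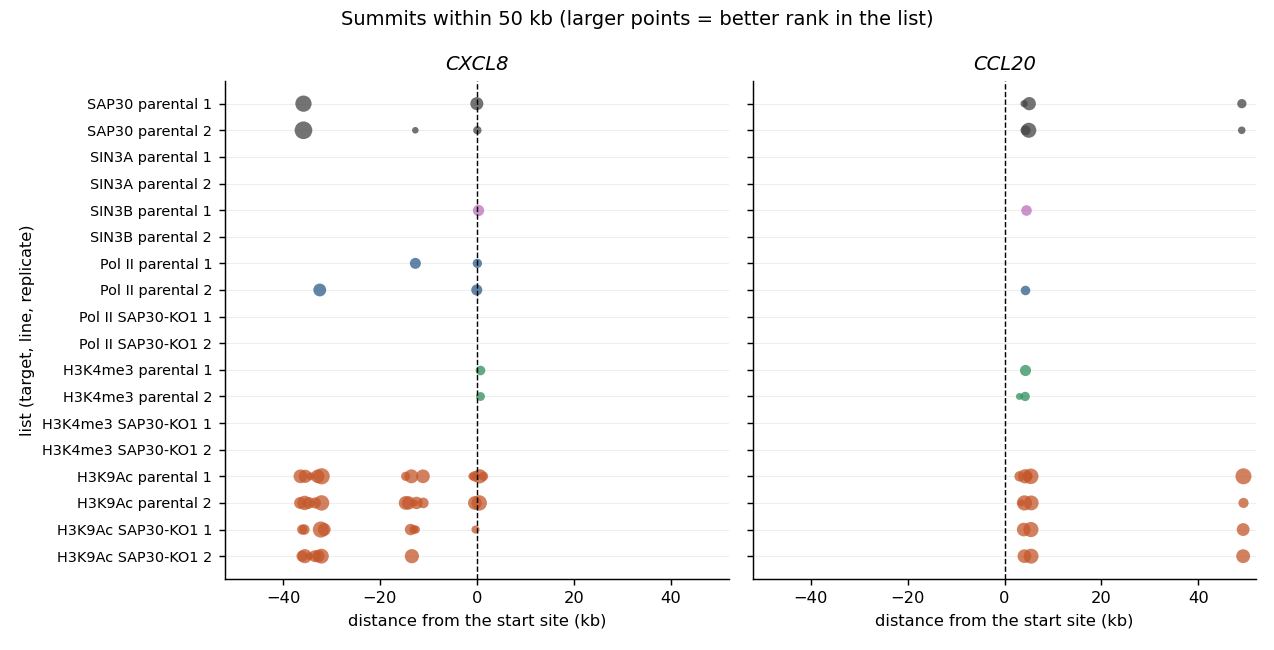
Summits of each of the 18 lists (rows) within 50 kb of the start sites of CXCL8 and CCL20, by distance in kb, with larger points for better ranks. At CXCL8 the Pol II and H3K4me3 rows of SAP30-KO1 are empty while H3K9Ac remains from 37 to 31 kb upstream, and at CCL20 the summits gather 3 to 6 kb downstream of the start site.

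CXCL1, CXCL2 and CXCL3 are the GRO chemokines of the same chromosome 4 cluster, at 74735110-74737025 (plus strand), 74962757-74964913 (minus) and 74902306-74904524 (minus). At all 3, a promoter peak was present in the 4 libraries each of Pol II, H3K4me3 and H3K9Ac. CXCL2 and CXCL3 carried SIN3B in both libraries, CXCL2 had SIN3A in 1 library at 83.6%, and CXCL1 had neither SIN3 protein within 128596 bp. SAP30 summits of CXCL2 lay 181 and 184 bp upstream of the start site at ranks of 28.3% and 24.2%. Those of CXCL3 lay 32 and 79 bp downstream at 50.9% and 23.6%, and those of CXCL1 both 118 bp downstream, in a coding exon, at 33.4% and 58.7%. All 4 CXC genes thus had SAP30 close to the start site, and CXCL2 had the best mean rank.

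The marks at CXCL1 moved in different directions. H3K4me3 ranked 40.7% and 43.2% in parental and 56.7% and 51.7% in SAP30-KO1 libraries, a weakening by 12.2 percentage points of mean rank. H3K9Ac ranked 19.4% and 24.2% in parental and 37.4% and 34.7% in SAP30-KO1, a weakening by 14.2 points. Pol II ranked 59.5% and 51.1% in parental and 48.5% and 24.5% in SAP30-KO1 libraries, so that its groups did not overlap in the opposite direction. In a limma fit of normal scores of the ranks, none of these differences passed after Benjamini-Hochberg adjustment. The H3K9Ac difference at CXCL1 was −0.42 ± 0.18 (SE, n = 2 per line), with an unadjusted limma p of 0.0409 and an adjusted p of 0.594.

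At CXCL3, H3K4me3 ranked 36.9% and 35.5% in parental and 45.3% and 42.2% in SAP30-KO1 libraries. At CXCL2 it ranked 35.5% and 36.2% against 46.2% and 37.3%, with the knockout libraries far apart. At both genes the lines did not overlap, and the adjusted limma p was 0.801 for CXCL3 and 0.856 for CXCL2. Pol II overlapped between the lines at both, with 40.2% and 33.0% against 35.1% and 53.0% at CXCL3 and 42.8% and 34.6% against 55.8% and 42.1% at CXCL2. H3K9Ac overlapped at both as well, and at CXCL2 the mean rank was 21.0% in parental and 20.8% in SAP30-KO1 cells.

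Other genes within 5 Mb of the CXC genes moved in the same direction for H3K4me3. Their median rank change was 5.58 to 6.40 percentage points over 36 to 38 genes, depending on the CXC gene at the centre. For Pol II it was 4.58 to 4.91 points over 27 to 29 genes, and for H3K9Ac 1.3 points. The part of this neighbourhood in the changes of the CXC genes was not tested.

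**Figure D4:**
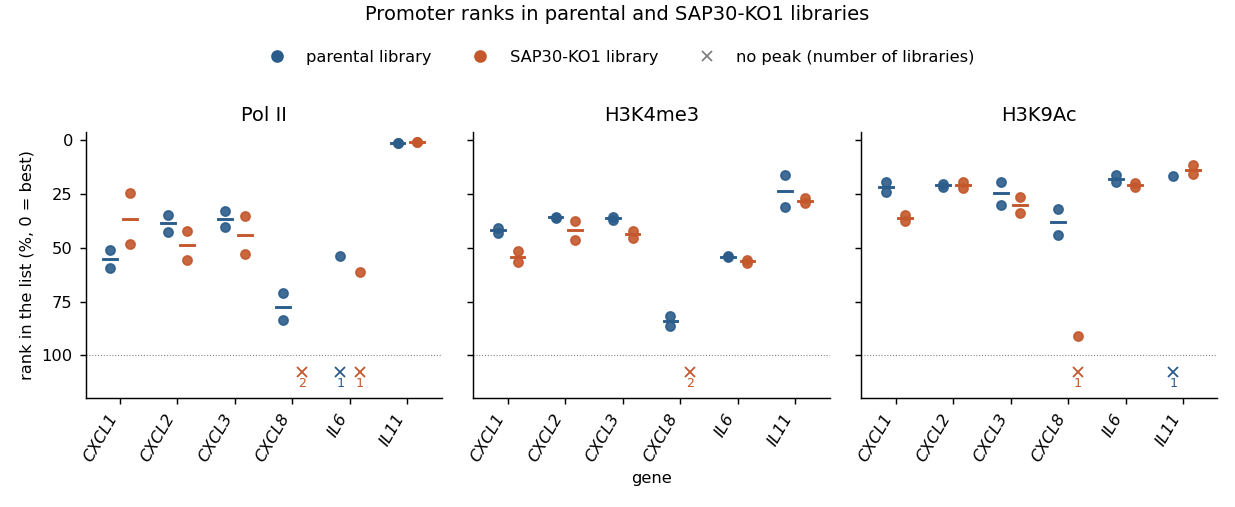
Promoter ranks of the 6 genes with promoter peaks, in percent of the list (0 is strongest and drawn at the top), with 1 point per library, a line for the mean of 2 and a cross with the number of libraries that had no peak. H3K4me3 of CXCL1, CXCL2, CXCL3 and IL6 is weaker in both SAP30-KO1 than in both parental libraries, Pol II of CXCL1 is stronger, and CXCL8 drops out of the Pol II and H3K4me3 lists.

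Over the members with a peak in all 4 libraries of a target, the median change of rank in SAP30-KO1 was 3.57 percentage points for Pol II (4 genes), beside 1.48 over all 10706 genes. The Pol II median turned to −0.91 without SAP30-KO1 replicate 2 and to −0.46 with the better-ranked 50% of each list. For H3K4me3 it was 5.88 points over 5 genes, beside 2.09 over 12531 genes, and for H3K9Ac 4.09 points over 4 genes, beside 0.309 over 12048 genes. H3K4me3 was weaker in both SAP30-KO1 than in both parental libraries at 4 of the 5 genes, CXCL1, CXCL2, CXCL3 and IL6 (all genes, 28.1%). For H3K9Ac this held at 2 of 4 genes, CXCL1 and IL6 (all genes, 22.1%), and for Pol II at 0 of 4 (all genes, 24.2%). CXCL1, CXCL2 and CXCL3 share a chromosome 4 neighbourhood and are not separate observations. The median H3K4me3 change of other genes within 5 Mb of them was 5.88 to 6.40 points. Pol II was stronger in both SAP30-KO1 libraries at 2 of 4 genes, CXCL1 and IL11 (all genes, 15.4%). The limma fit across all genes called 0 of 10706 genes for Pol II (0%) and 0 of 12531 for H3K4me3 (0%), with 828 and 991 genes at an unadjusted p under 0.05. It called 2 of 12048 for H3K9Ac (0.0166%), neither of them among the cytokine genes.

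CCL20 had no promoter peak, but a cluster of summits lay 3 to 6 kb downstream of its nearest start site, at and just past the 3′ end of the gene (chromosome 2, 228670455-228682280, plus strand). SAP30 had 2 summits there in each library, with best ranks of 53.1% and 35.9%, SIN3B had 1 in replicate 1 and SIN3A had none. H3K4me3 was present in both parental libraries, 4249 and 4262 bp from the start site with ranks of 71.2% and 83.6%. It was missing from both SAP30-KO1 libraries, whose nearest summits were 57886 and 57618 bp away. Pol II was found in 1 parental library at 82.2% and in no SAP30-KO1 library. H3K9Ac stayed in all 4 libraries, with best ranks of 30.7% and 34.7% in parental and 34.7% and 36.8% in SAP30-KO1 cells. The number of H3K9Ac summits within 50 kb was 5 and 4 in parental and 3 and 3 in SAP30-KO1 libraries (all genes with fewer, 13.3%). A further weak SAP30 region lay 48964 bp downstream, with ranks of 83.9% and 93.8% and H3K9Ac in both lines.

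CCL2 (chromosome 17, 32582293-32584227, plus strand) had no summit of any target within 50 kb in any library. The nearest lay 571255 to 725131 bp away.

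IL6 (chromosome 7, 22765503-22771621, plus strand) had the best mean SAP30 rank among the 6 bound promoters, 26.7% and 20.3%, with both summits in a coding exon 158 and 159 bp past a start site. IL6 has 6 annotated start sites, and with the 5′ end of the gene record as its start site it had a promoter peak in 1 library in place of 14. SIN3B lay beside it at 42.7% and 26.0%. H3K9Ac was steady, with ranks of 16.1% and 19.5% in parental and 19.6% and 21.6% in SAP30-KO1 libraries, and H3K4me3 ranked 54.0% and 54.1% against 55.6% and 56.9%. The lines did not overlap for either mark, but the shifts were 2.81 and 2.17 percentage points, with adjusted limma p of 0.920 and 0.948. The H3K4me3 shift was close to the median of 2.09 points over all genes, and its limma difference changed sign under some settings. Pol II at IL6 was inconstant. It was listed in parental replicate 2 at 54.0% and SAP30-KO1 replicate 1 at 61.4%, and in neither of the other libraries. A further 3 SAP30 regions lay within 50 kb, 1 inside IL6 and the others inside STEAP1B, and all carried H3K9Ac in both lines.

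IL11 (chromosome 19, 55875750-55881831, minus strand), a cytokine known for its role in breast cancer bone metastasis, was the only member with SAP30, SIN3A and SIN3B in both libraries. SAP30 ranked 24.0% and 31.7%, SIN3B 34.8% and 58.6%, and SIN3A 61.8% and 88.2%. Pol II stood at about 1% in all 4 libraries. It had 6 and 5 gene-body summits in parental and 8 and 9 in SAP30-KO1 libraries (exact permutation p = 0.333, the smallest possible). The share of all genes with such a difference was not computed for gene bodies. Within 50 kb of IL11, Pol II summits numbered 23 and 20 in parental and 23 and 18 in SAP30-KO1 libraries, which overlapped. H3K4me3 ranked 16.2% and 31.2% in parental and 29.3% and 26.9% in SAP30-KO1 libraries, within the spread of the parental pair. H3K9Ac was absent from the promoter window in parental replicate 1, whose nearest summit was 1325 bp away, and ranked 16.8% in parental replicate 2 and 11.6% and 15.7% in SAP30-KO1. Without parental replicate 2, or in a window of 500 bp, IL11 counted as a gain of H3K9Ac. The window of 500 bp left out the summit of parental replicate 2 at 516 bp and kept those of SAP30-KO1 at 473 and 481 bp.

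LIF (chromosome 22, 30636442-30642748, minus strand) keeps mouse embryonic stem cells undifferentiated and like IL6 activates STAT3. It had no promoter peak but many summits around it, 211 within 50 kb over the 18 lists, beside 209 for IL11. All 18 libraries had a summit 9 to 12 kb upstream, in a stretch that overlaps no protein-coding or long noncoding gene. H3K9Ac was among the strongest of its lists there, at 2.75% and 3.37% in parental and 7.94% and 3.29% in SAP30-KO1 libraries. SAP30 ranked 23.3% and 22.8%, although the 2 summits were over 1000 bp apart, SIN3B 9.16% and 33.5%, and SIN3A 21.4% and 68.6%. Pol II ranked 43.5% and 36.6% in parental and 39.9% and 36.5% in SAP30-KO1 libraries, and H3K4me3 33.5% and 40.7% against 34.0% and 32.0%. The lines overlapped for Pol II and H3K4me3 in this stretch. For H3K9Ac, too, the lines overlapped. A second SAP30 region lay 5997 bp upstream at 24.6% and 29.5%, with SIN3B, Pol II and H3K4me3 in both libraries and no parental H3K9Ac.

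IL1B (chromosome 2, 113587328-113594393, minus strand) had no promoter or gene body summit in any library. H3K9Ac lay within 50 kb in all 4 libraries, with 5 and 5 summits in parental and 6 and 5 in SAP30-KO1 libraries, none closer than 23569 bp. SAP30 was found within 50 kb in replicate 1 alone.

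Summits within 50 kb of any of the 10 genes numbered 18 and 21 for H3K4me3 in parental and 14 and 15 in SAP30-KO1 libraries, a ratio of 0.744. Pol II summits numbered 44 and 46 against 40 and 45 (ratio 0.944), and H3K9Ac summits 68 and 61 against 61 and 60 (ratio 0.938). The whole H3K9Ac lists were also shorter in SAP30-KO1, with 54622 and 53651 summits against 50862 and 50807. Whole H3K4me3 lists held 24079 and 22393 against 20735 and 23350, and Pol II lists 20736 and 23002 against 23342 and 22123. The ratios were not adjusted for list length. H3K4me3 summits were fewer in both SAP30-KO1 than in both parental libraries at 3 of the 8 genes that had any, CXCL1, CXCL8 and CCL20 (all genes, 8.21%). Pol II summits were fewer at 1 of 9, CXCL8 (all genes, 9.32%), and more at 0 of 9 (all genes, 15.7%). H3K9Ac summits were fewer at 2 of 9, CXCL8 and CCL20 (all genes, 13.3%), and more at 1, CXCL2 (all genes, 5.81%), where they numbered 5 and 5 against 7 and 8. The windows of CXCL2 and CXCL3 overlap, since their start sites are 60506 bp apart.

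**Figure D5:**
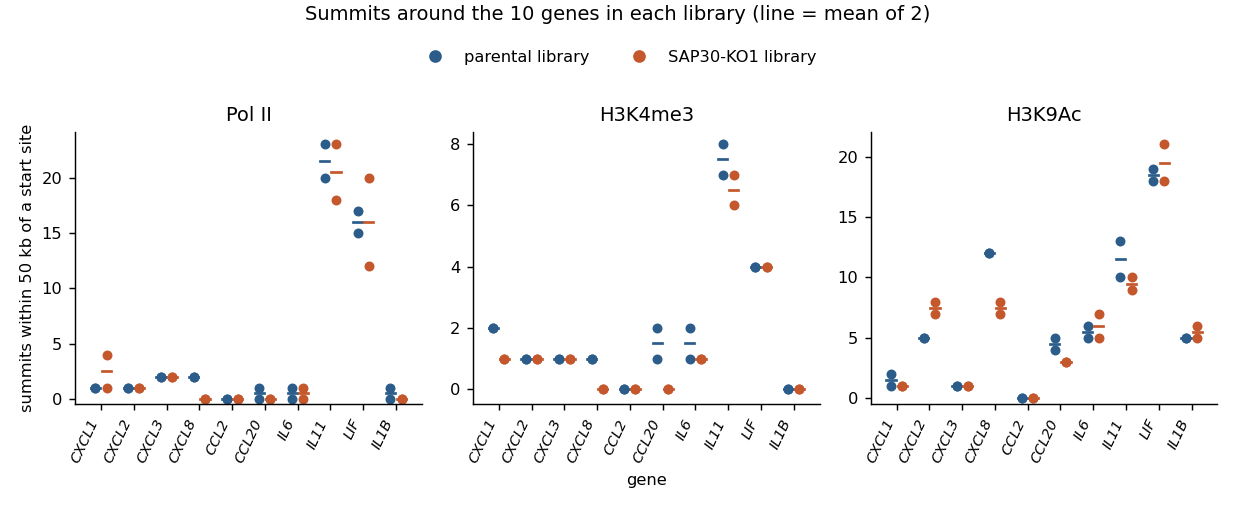
Number of summits within 50 kb of the start sites of each of the 10 genes for Pol II, H3K4me3 and H3K9Ac, with 1 point per library and a line for the mean of 2. H3K9Ac at CXCL8 falls from 12 and 12 to 8 and 7, H3K4me3 at CXCL1, CXCL8 and CCL20 is lower in both SAP30-KO1 libraries, and IL11 and LIF hold most Pol II summits.

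Summits within 1000 bp of each other were also merged into regions. Of 17 Pol II regions seen in both parental libraries within 50 kb, 1 was lost in SAP30-KO1, the CXCL8 promoter (all regions, 8.61%). Of 15 H3K4me3 regions, 3 were lost (all regions, 6.22%). They lay at the CXCL8 promoter, downstream of CCL20, and at the COX6B2 promoter 16428 bp downstream of the IL11 start site. All 3 were weak in the parental libraries, with ranks of 81.6% and 86.2%, 71.2% and 83.6%, and 94.1% and 79.4%. Losses among regions of like rank were not counted. Of 36 H3K9Ac regions, 3 were lost (all regions, 5.18%). The first lay 11057 bp upstream of CXCL8 at ranks of 48.8% and 74.1%, and the second lay inside OSM, 16531 bp upstream of LIF. The third, at TMEM238 and RPL28 near IL11, ranked 1.24% and 1.77%, and a SAP30-KO1 summit lay 1052 bp from it, just beyond the merging distance. In the other direction, 1 H3K4me3 region was gained, 41112 bp downstream of the LIF start site at ranks of 97.8% and 87.6% in SAP30-KO1. By this merging, no Pol II or H3K9Ac region was gained within 50 kb of the cytokine genes. Upstream of LIF, SAP30-KO1 summits of H3K9Ac were merged with a weak summit of parental replicate 2. That summit lay 2478 bp upstream at 88.5%, so no gain was counted there. Over all regions, 210 were gained for H3K4me3, 1102 for H3K9Ac and fewer for Pol II than for H3K4me3. No share was computed for gains, so those near the cytokine genes were not compared with gains over all regions.

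SAP30 regions found in both libraries numbered 32 within 50 kb of the 10 genes, 12 around LIF, 8 around IL11, 4 around IL6, 2 each around CXCL2, CXCL8 and CCL20, 1 each around CXCL1 and CXCL3, and 0 around CCL2 and IL1B. The median over all protein-coding genes was 2. At promoters of any gene lay 12 of the 32 (37.5%), against 53.0% of all 24796 SAP30 regions, and their median rank was 52.8%, against 37.3%. H3K9Ac was present in both parental libraries at 26 of the 32 (81.2%, all regions 81.1%) and in both SAP30-KO1 libraries at 25 (78.1%, all regions 79.6%). H3K4me3 was present at 13 in each line (40.6%, all regions 61.0% in parental and 58.9% in SAP30-KO1 cells). SIN3B was present at 13 (40.6%, all regions 50.6%) and SIN3A at 4 (12.5%, all regions 23.8%), and all 4 SIN3A regions lay at promoters.

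Other genes of the same signaling routes were followed as 3 lists. Among 15 NF-kB and STAT3 factors, 13 had SAP30, 15 Pol II and 14 H3K4me3 in both parental libraries, above the shares over all genes. Among 12 receptors these counts were 7, 6 and 8, and among 20 other ligands 6, 3 and 6. Of the 47 genes, none lost or gained a Pol II or H3K4me3 promoter peak. For H3K9Ac, 1 lost its promoter peak (all genes, 0.423%), CSF3, the granulocyte colony-stimulating factor, and 1 gained one (all genes, 0.328%), CX3CL1, the membrane-bound chemokine fractalkine. No gene of the 3 lists passed the limma fit for any target.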

How the data were processed

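The authors deposited 1 list of MACS2 peak summits for each of 18 libraries, each scored as −log10 of a q-value. The submitters' processing notes name FastQC 0.11.2, Bowtie2 2.3.3.1, Picard, MACS2 2.1.0 and build hg19, but neither the MACS2 options nor the control of each list. Both the number of peaks and the score depend on depth and enrichment, so scores served only to rank summits within a list. The 12 input and histone H3 samples were not analysed here. Start sites were those of basic transcripts in GENCODE release 44 lifted to GRCh37. A lost peak was present in both parental and neither SAP30-KO1 library. Genes with a promoter peak in all 4 libraries of a target were fitted with limma 3.58.1 (R 4.3.3) on normal scores of the ranks, and p-values were adjusted over all of them. The fit was tested on simulated data. Counts at single genes were compared by exact permutation tests, two-sided. Genes were named by a rule that took all 10 members and, from the other lists, those that changed promoter status or passed the fit. Members, lists and tests were chosen with earlier results of these data known. Promoter sequences came from RefSeq (GRCh38.p14), and no coordinates were converted between builds.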

Additional observations from a re-analysis of the deposited data

How the results depend on the processing

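Settings were changed 1 at a time. With the better-ranked 50% of each list, promoter peaks in both libraries were counted at 3 genes for SAP30, 0 for SIN3A, 1 for SIN3B, 3 for parental and 2 for SAP30-KO1 Pol II and 3 for SAP30-KO1 H3K4me3. Pol II losses then fell to 0 with 1 gain (CXCL1), H3K9Ac losses rose to 1 (CXCL8), the 1 H3K4me3 loss was CXCL1 rather than CXCL8, and the median rank change was 11.8 points for H3K4me3 and 8.19 for H3K9Ac. The 500 bp window gave 0 genes for SIN3A, 0 H3K4me3 losses and 1 H3K9Ac gain (IL11). Leaving out 1 library gave 1 to 2 genes for SIN3A (2 without replicate 2), 0 to 1 H3K9Ac losses (1 without SAP30-KO1 replicate 1) and 0 to 1 H3K9Ac gains (1 without parental replicate 2). The median rank change ranged from −0.91 to 5.33 points for Pol II, from 3.27 to 9.17 for H3K4me3 and from 1.15 to 9.10 for H3K9Ac. Without SAP30-KO1 replicate 2 it was lowest for Pol II and highest for the marks. The Pol II median was 1.82 without parental replicate 2, 1.58 without SAP30-KO1 replicate 1, 1.48 with shared ranks and −0.46 with the better-ranked 50%, the H3K4me3 median was 3.27 without SAP30-KO1 replicate 1, and the H3K9Ac median was 1.15 and 2.54 without parental replicates 1 and 2 and 2.72 without SAP30-KO1 replicate 1. Genes called by limma ranged from 0 to 703 for Pol II (703 without SAP30-KO1 replicate 1, 181 without replicate 2) and from 11 to 35 for H3K9Ac, where the lone library of a line is assumed to vary like the other line's pair. Among the cytokine genes, the 1 call was CXCL8 for H3K9Ac without SAP30-KO1 replicate 2 (adjusted p = 0.0192). With the prior variance following the mean, limma called 61 genes for H3K4me3 and 1 for H3K9Ac, and on log2 scores 142 and 1. H3K9Ac calls were 1 in a 3000 bp window and with ranks among the genes shared by all 4 lists, and 0 with the 5′ end of the gene record, the better-ranked 50% or lists of equal length. With the 5′ end of the gene record, IL6 had promoter peaks in 1 library in place of 14. Replicate numbers did not pair the samples (correlation of deviations 0.014, −0.0092 and −0.0056 for Pol II, H3K4me3 and H3K9Ac), and a replicate block gave 1, 0 and 2 calls. The ratio of summits within 50 kb became 1.05 for Pol II and 0.633 for H3K4me3 at 20 kb, 0.685 for Pol II with summits within 1000 bp counted once, 1.32 and 0.895 with the better-ranked 50%, and 0.875 for H3K4me3 with lists of equal length. Limma differences that changed sign had adjusted p of 0.844 to 0.999 under those settings. For IL6 H3K4me3 the differences were 0.019 with lists of equal length, 0.25 on log2 scores and 0.090 with shared ranks. With 1 library left out, the difference ranged from −0.42 to 0.041 for Pol II at CXCL3, from −0.41 to 0.089 for H3K4me3 at IL11, from −0.34 to 0.0033 for H3K9Ac at CXCL3 and from −0.040 to 0.055 for H3K9Ac at CXCL2. The positive values came without SAP30-KO1 replicate 2, parental replicate 1 and parental replicate 2 for the first 3, and for the last −0.021 came without parental replicate 2 and −0.040 without SAP30-KO1 replicate 2. The cause of these shifts was not tested. Unknown depth limits every statement on an absent peak.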
